A study of Drosophila melanogaster with 6 samples.

Results

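The glutathione S-transferase (GST) genes of the fly were described in female Drosophila melanogaster heads across strain and time of day. Members were the genes whose probe set carries exactly 1 symbol and whose symbol has a GST class letter (D, E, O, S, T or Z) and a number, with the probe set of the highest mean taken where a gene had several. This gave 34 of 11982 named genes: 11 of class D (delta), 13 of class E (epsilon), 3 of class O (omega), 1 of class S (sigma), 4 of class T (theta) and 2 of class Z (zeta). The current gene table holds 35 such symbols, and GstE8 was not analysed here. Heads came from a control strain and from a strain named Tim-Fbl in the labels' RNAi field, all kept at 25 °C. Each was sampled at ZT3 and ZT15, which are 3 and 15 hours after lights-on. There were 2 control arrays per time and 1 Tim-Fbl array per time, which leaves each Tim-Fbl group without replicates. The labels give neither the flies' age, the driver and construct behind the name Tim-Fbl, nor whether heads were pooled, and they do not say that replicates came from separate cultures; the p-values may therefore measure technical spread.

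GSTs join the tripeptide glutathione to reactive molecules, which makes these more soluble and ready for export, and some members instead isomerise or reduce specific metabolites. The D and E classes are expanded in insects and are best known for detoxifying insecticides, plant compounds and the products of lipid oxidation. The O, S, T and Z classes are shared with vertebrates and include enzymes with defined metabolic roles. Many GST genes stand next to each other in the genome as near copies, and probes of such copies can share signal.

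Values are log2 levels from RMA, a method that sets the probe signals of arrays to a common distribution and summarises the probes of a gene. A difference of 1 is therefore a doubling, and levels of different probe sets are not comparable with each other. Array medians lay between 5.44 and 5.50 and lower quartiles between 3.98 and 4.15. Upper quartiles lay between 8.18 and 8.38, so the distributions of the deposited values were not identical. A gene was called changed at a limma p-value, adjusted by Benjamini-Hochberg over all 18769 probe sets, under 0.05. The gene named in the strain's label, fbl, stood at 9.28 and 9.26 on the control ZT3 arrays, 9.27 and 9.11 on the control ZT15 arrays, and 7.47 and 7.49 in Tim-Fbl. The poly-A spike-in probe sets (24 of them) read higher on 1 array, Tim-Fbl at ZT15, where their median was 6.54, than on the other 5, where it was 5.17 to 5.89. Of the marker lists for head cells, 4 of 4 measured photoreceptor, 4 of 4 neuron and 3 of 3 glia genes had mean levels above 5. The lowest value of any measured fat body marker was 11.9 (Lsp2). Low levels also appeared in the gut list, where 3 of 6 members had a mean under 5, and in the ovary and eggshell list, where 3 of 6 did. In bulk heads, fewer cells of a type and less RNA per cell cannot be told apart.

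Of the 34 members, 28 had a mean level of at least 5. The other 6 (GstD4, GstD5, GstD6, GstD7, GstD8 and GstE4) had means between 3.95 and 4.90, close to the arrays' lower quartiles, where real differences are compressed. No member was left out of the test for its level. Within control pairs (n = 2 each), the median SD over members was 0.059 at ZT3 and 0.11 at ZT15. Over all probe sets it was 0.082 and 0.066, so members spread less at ZT3 and more at ZT15. The widest pair at ZT3 was GstE7 (8.05 and 8.71). The wider spread at ZT15 was largest in GstD3 (9.06 and 8.58), GstT3 (9.49 and 9.93) and GstE9 (12.39 and 11.96).

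**Figure D1:**
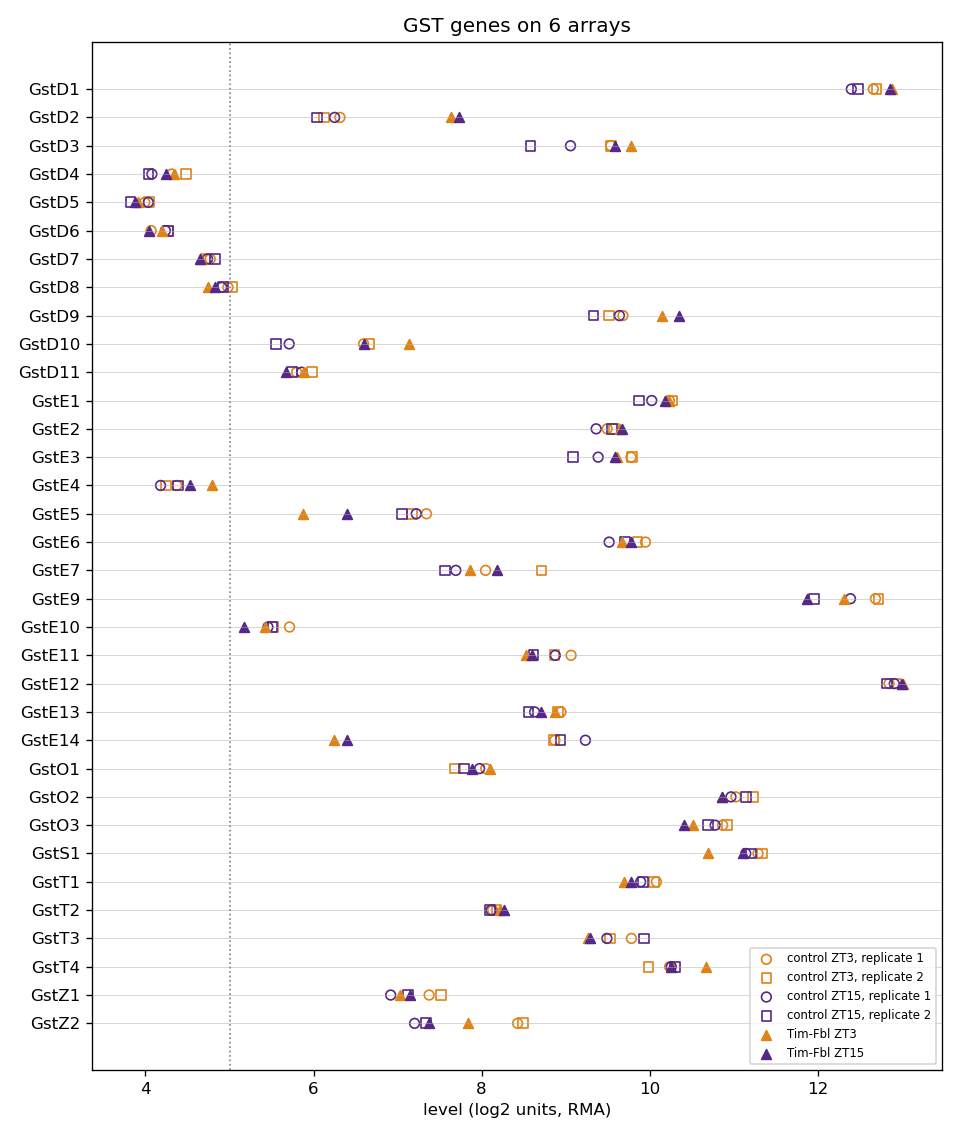
Log2 level (horizontal axis) of each of the 34 GST genes (rows) on the 6 arrays; open symbols are control arrays, triangles are Tim-Fbl, orange is ZT3 and purple is ZT15, and the dotted line marks a level of 5. Both Tim-Fbl triangles of GstE14 (6.25 and 6.40) lie far left of its controls, those of GstD2 (7.64 and 7.73) lie to the right, and 6 genes lie near the lower end of the scale.

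The first comparison asked which GST genes differed between Tim-Fbl and control heads on average over both times. Among members, 6 of 34 changed: GstD2, GstD9 and GstD10 rose, and GstE14, GstE5 and GstO3 fell. That is 17.6% of the members, against 8.79% of all probe sets called in this comparison. In each direction 8.82% of members were called, against 5.44% of all probe sets higher and 3.35% lower. The share called depends on level. With probe sets of a mean under 5 left out, 15.5% were called, and 3 of 28 members were higher and 3 lower. With those under 7 left out, 16.8% were called, and 2 of 23 members were higher and 2 lower. Above 0 lay 16 members and below it 18, against 8351 and 10418 of all probe sets. The median difference over members was -0.05, against -0.03 over all probe sets. At a mean of at least 5 these medians were -0.01 and 0.07. The 28 members of the 34 that were not called had differences between -0.41 and 0.50, and 16 of them lay within 0.2 of 0. Some markers of other cell types also passed in this comparison. The Malpighian tubule gene Irk2 (1 of 3 listed was measured) fell by 0.59 on the log2 scale (adjusted p = 0.0103). In the gut list 1 of 6, epsilonTry, fell by 0.31 (adjusted p = 0.0454). In the ovary and eggshell list 3 of 6 changed: grk rose by 0.57 (adjusted p = 0.00721), and Cp15 and bcd fell by 0.38 and 0.31 (adjusted p = 0.0316 and 0.0468). The summed log2 level was 29.8 to 31.0 in controls and 29.9 and 28.9 in Tim-Fbl for gut, and 33.5 to 34.9 and 33.3 and 33.4 for ovary and eggshell. None of the measured neuron, photoreceptor, glia or fat body markers passed. Act88F of the muscle list did, and is given with GstS1. Differences were above 0 in 3 of 4 neuron, 2 of 3 glia, 1 of 4 photoreceptor and 2 of 5 fat body markers. The neuron genes elav (0.35) and para (0.30) and the glia gene moody (0.32) came closest (adjusted p = 0.0524, 0.0535 and 0.0557). Neuron sums at ZT3 were 31.5 and 31.3 in controls and 32.5 in Tim-Fbl. At ZT15 they were 32.3 and 32.7 in controls and 33.1 in Tim-Fbl. The part of these markers in the GST differences was not tested.

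The change of greatest size among members was a fall in GstE14. This gene, also known as noppera-bo, is required in the larval prothoracic gland for making the steroid hormone ecdysone. Its level was 8.87 and 8.86 on the control ZT3 arrays, 9.24 and 8.94 on the control ZT15 arrays, and in Tim-Fbl 6.25 at ZT3 and 6.40 at ZT15. Both Tim-Fbl arrays lay below all 4 controls by more than 2 units, with a difference of -2.62 at ZT3 and -2.69 at ZT15. Over both times the level was 6.29-fold lower (log2 difference -2.65 ± 0.097 SE, adjusted p = 2.45e-05).

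GstE5, an epsilon-class gene within a run of neighbouring epsilon genes, was 2.08-fold lower (-1.06 ± 0.15 SE, adjusted p = 0.00805). It measured 7.34 and 7.17 in controls at ZT3, 7.22 and 7.05 in controls at ZT15, 5.88 in Tim-Fbl at ZT3 and 6.40 in Tim-Fbl at ZT15. The groups did not overlap, and the gap was wider at ZT3 (-1.38) than at ZT15 (-0.74), a difference between times that did not pass the interaction test (adjusted p = 0.842).

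GstO3, an omega-class gene, showed the smallest of the 6 changes, at 1.28-fold lower (-0.35 ± 0.073 SE, adjusted p = 0.03). Its levels were 10.87 and 10.92 in controls at ZT3, 10.78 and 10.70 in controls at ZT15, and 10.52 and 10.41 in Tim-Fbl. Both Tim-Fbl values were below all controls, but the lowest control and the higher Tim-Fbl value stood at 10.70 and 10.52. The call was lost without any one of the control ZT3 arrays, control ZT15 replicate 1 or either Tim-Fbl array, at differences from -0.38 to -0.33 and adjusted p from 0.054 to 0.224.

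The 3 rises were all in the delta class. GstD2 was 2.84-fold higher in Tim-Fbl (1.5 ± 0.099 SE, adjusted p = 0.000386). Its controls measured 6.31 and 6.12 at ZT3 and 6.25 and 6.04 at ZT15, and Tim-Fbl measured 7.64 and 7.73. The groups were separated by more than 1 unit at both times.

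GstD9 was 1.63-fold higher (0.71 ± 0.12 SE, adjusted p = 0.0159), with control levels of 9.68, 9.52, 9.64 and 9.33 and Tim-Fbl levels of 10.15 and 10.35. GstD10 was 1.67-fold higher (0.74 ± 0.12 SE, adjusted p = 0.0125). It measured 6.60 and 6.67 in controls at ZT3, 5.71 and 5.55 in controls at ZT15, 7.14 in Tim-Fbl at ZT3 and 6.60 in Tim-Fbl at ZT15. For GstD9 both Tim-Fbl arrays were above all controls; for GstD10 each Tim-Fbl array was above the controls of its own time, while the ZT15 array (6.60) lay at the level of the ZT3 controls. Without the Tim-Fbl ZT15 array, which had the high spike-in signal, neither gene passed (GstD9 0.55, adjusted p = 0.114; GstD10 0.51, adjusted p = 0.082), and GstD2 (1.42), GstE5 (-1.38) and GstE14 (-2.62) still passed. That setting rests on 1 Tim-Fbl array, at ZT3. GstS1 and GstZ2 then stood at -0.62 each, while at ZT15 they differed from controls by -0.06 and 0.10. The part of the spike-in difference in these results was not tested.

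**Figure D2:**
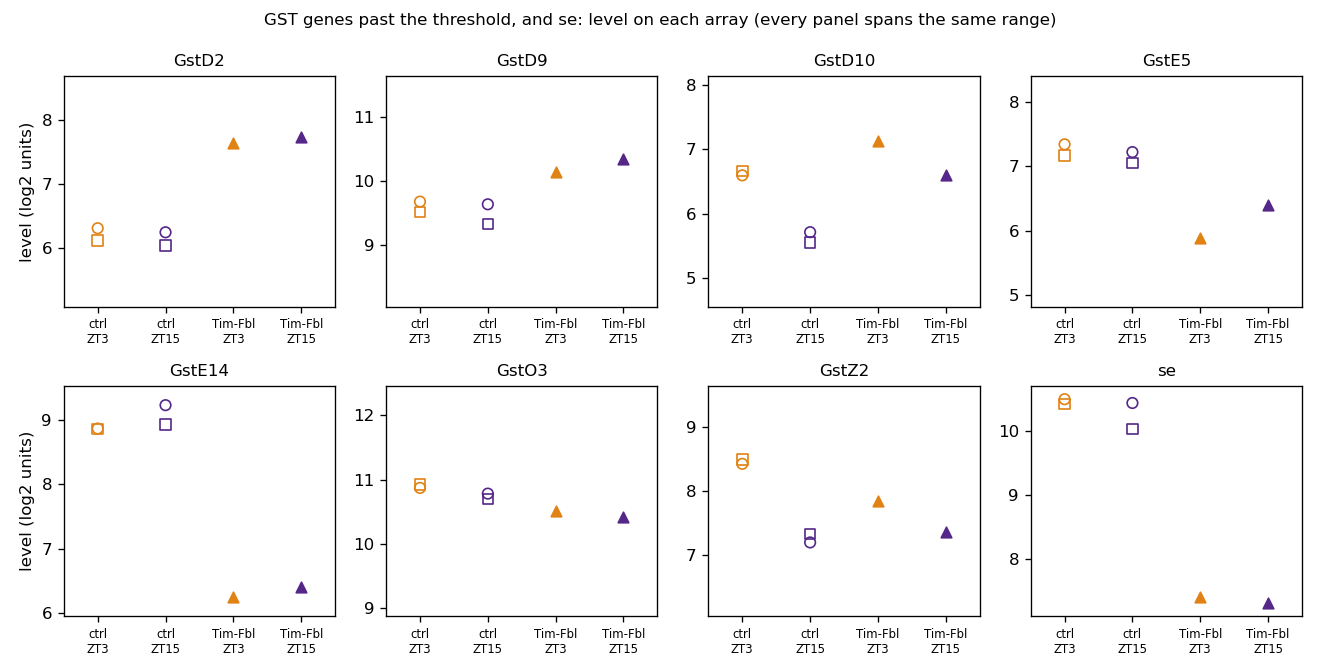
Log2 level on each array (vertical axis) for the 7 GST genes past the threshold for strain or time and for se, with control arrays as open symbols (circle for replicate 1, square for replicate 2) and Tim-Fbl arrays as triangles. Tim-Fbl is above the controls in GstD2 and GstD9, below them in GstE14, GstE5, GstO3 and se, and the controls of GstD10 and GstZ2 drop from ZT3 to ZT15.

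The members share chromosomal runs, which the choice of genes did not use. In the RefSeq gene table, all 11 delta genes form 1 run, with 1 other protein-coding gene before GstD11. The 5 genes at one end of that run, GstD10, GstD9, GstD1, GstD2 and GstD3 in this order, had strain differences from 0.31 to 1.5, all above 0. Of these, GstD1 and GstD3 did not pass. The 6 genes that follow lay between -0.17 and 0.06, with mean levels between 3.95 and 5.82, and none passed. This split of the run was not set in advance. All of these 6 but GstD11 lie near the floor, where differences are compressed, so place in the run and level cannot be told apart. Near copies in such a run may share probe signal, and that was not tested.

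GstD1, the delta enzyme best known for acting on the insecticide DDT and widely used to report oxidative stress, measured 12.66 and 12.70 in controls at ZT3, 12.40 and 12.48 in controls at ZT15, and 12.88 and 12.86 in Tim-Fbl. Both Tim-Fbl arrays were above all controls, by a difference of 0.31 ± 0.083 (SE) that missed the threshold (adjusted p = 0.0604). It passed in 4 of 14 alternatives: median subtraction (0.34, adjusted p = 0.042), quantile normalization (0.36, adjusted p = 0.035), trend and robust variances (adjusted p = 0.0298), and a test without probe sets of a mean below 7 (adjusted p = 0.0469). GstD3 measured 9.54 and 9.54, then 9.06 and 8.58, in controls, and 9.78 and 9.59 in Tim-Fbl (0.50 ± 0.16 SE, adjusted p = 0.092).

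Of the 10 neighbouring epsilon genes, 9 were measured and GstE5 alone passed. The other 8 had differences between -0.35 (GstE9) and 0.36 (GstE4). GstE4, with control levels of 4.18 to 4.39 and Tim-Fbl levels of 4.80 and 4.53, lay near the floor (adjusted p = 0.0635). Without control ZT15 replicate 2, GstE4 (0.43, adjusted p = 0.0442) and GstE9 (-0.45, adjusted p = 0.0319) passed. GstE4 also passed with trend and robust variances. GstE10, at one end of the run, measured 5.46 to 5.71 in controls and 5.42 and 5.18 in Tim-Fbl (-0.25 ± 0.086 SE, adjusted p = 0.106). The epsilon genes outside the run other than GstE14 had differences of -0.29 (GstE11, adjusted p = 0.142), 0.13 (GstE12) and 0.03 (GstE13), and none passed. GstE12, the epsilon gene with the highest mean, measured 12.83 to 12.94 in controls and 13.02 and 13.01 in Tim-Fbl. GstE9 had a second probe set near the floor (3.52 to 4.08) with a difference of 0.38 (adjusted p = 0.052), opposite in sign to the first. The first read 11.87 to 12.73, far from the floor, so the measured sign differed between a high and a near-floor probe set.

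The omega genes lie next to se (sepia), an omega-class GST outside the naming rule that makes a precursor of the red eye pigments. The order along the chromosome is GstO3, se, GstO2 and GstO1. The level of se was 10.49 and 10.42 in controls at ZT3, 10.44 and 10.03 in controls at ZT15, and 7.41 and 7.32 in Tim-Fbl, a fall of 7.89-fold (-2.98 ± 0.12 SE, adjusted p = 2.99e-05). On its other side, GstO2 had a difference of -0.23 (adjusted p = 0.154) and, on a second probe set, -0.46 (adjusted p = 0.139). GstO1 measured 7.69 to 8.05 in controls and 8.10 and 7.89 in Tim-Fbl, which overlap. Among these 4 neighbours, then, se and GstO3 fell, by very different amounts, and the others did not pass.

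**Figure D3:**
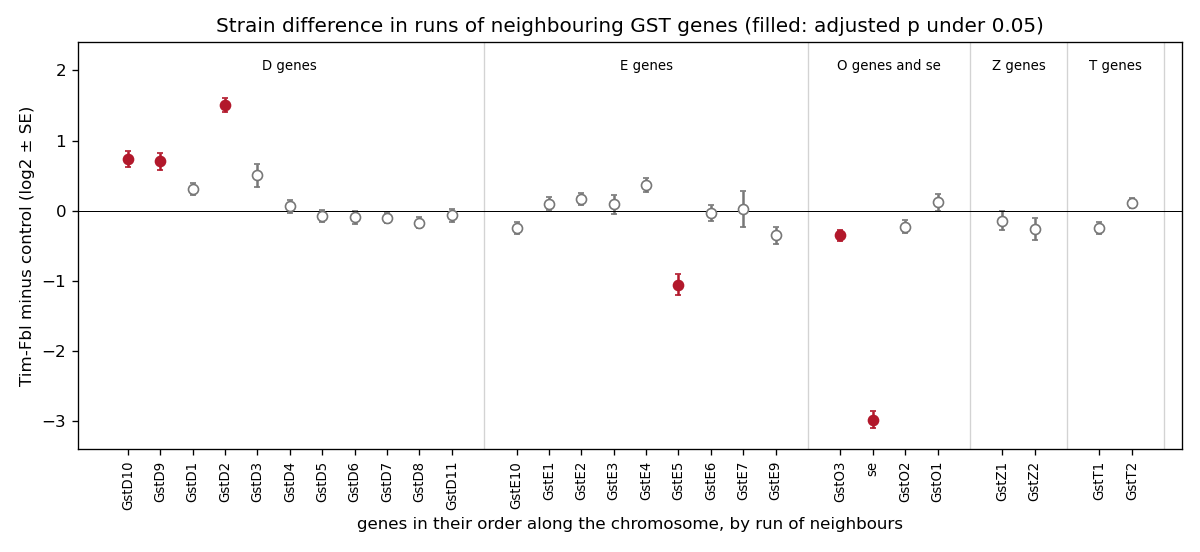
Tim-Fbl minus control difference (vertical axis, log2, bars are ± SE from limma, 2 Tim-Fbl and 4 control arrays) for GST genes and se in their chromosomal order within each run of neighbours; filled points have an adjusted p under 0.05. GstD10, GstD9 and GstD2 stand above 0 at one end of the delta run. GstE5 is the only filled point in the epsilon run, and se is at -2.98 beside GstO3 at -0.35.

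GstS1, the only sigma-class member, is an abundant enzyme of flight muscle that removes lipid oxidation products. It measured 11.29 and 11.34 in controls at ZT3, 11.15 and 11.21 in controls at ZT15, 10.69 in Tim-Fbl at ZT3 and 11.11 in Tim-Fbl at ZT15. Both Tim-Fbl arrays were below all controls, but the second by a small margin, and the mean difference did not pass (-0.34 ± 0.13 SE, adjusted p = 0.126). Without the Tim-Fbl ZT15 array it was -0.62, and without the Tim-Fbl ZT3 array it was -0.06, each resting on 1 Tim-Fbl array. Muscle markers went the other way: 2 of 4 were measured, with a summed log2 level of 16.06 to 16.22 in controls and 17.26 and 17.89 in Tim-Fbl. Act88F, a flight muscle actin, rose by 1.31 on the log2 scale, and up (troponin T) differed by 0.13 without passing; their part in the GstS1 value was not tested.

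None of the 4 theta genes and neither zeta gene passed for strain. GstT3 had the lowest value of these (-0.41, adjusted p = 0.1), with Tim-Fbl levels of 9.26 and 9.29 below control levels of 9.49 to 9.93. GstT1 measured 9.89 to 10.08 in controls and 9.70 and 9.78 in Tim-Fbl (-0.25 ± 0.083 SE, adjusted p = 0.103), which did not overlap. GstT2 measured 8.10 to 8.18 in controls and 8.21 and 8.26 in Tim-Fbl (0.11, adjusted p = 0.351). GstT4 measured 9.99 to 10.30 in controls and 10.67 and 10.25 in Tim-Fbl. Counting separation alone, both Tim-Fbl arrays were above all 4 controls in 8 of 34 members, against 16.5% of all probe sets, and below them in 11 members, against 19.9%.

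The second comparison asked which members differed between ZT15 and ZT3 in control heads. GstZ2 and GstD10 fell, and no member rose. These 2 are 5.88% of members, against 0.703% of all probe sets called and 0.389% called lower. At an unadjusted p under 0.05, 12 of 34 members differed, against 17.3% of all probe sets. All 12 were lower at ZT15, against 7.25% of all probe sets that were lower at that level. The median difference over members was -0.12, against -0.01 over all probe sets. Below 0 were 28 of 34 members, against 9659 of 18769 probe sets. Both ZT15 arrays were below both ZT3 arrays in 18 members (25.6% of all probe sets) and above them in 2, GstE14 and GstT4 (26.5% of all probe sets).

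GstZ2, a zeta-class gene whose vertebrate counterpart isomerises maleylacetoacetate in tyrosine breakdown, was 2.28-fold lower at ZT15 in controls (-1.19 ± 0.095 SE, adjusted p = 0.00477). It measured 8.43 and 8.50 at ZT3 and 7.20 and 7.34 at ZT15. In Tim-Fbl it measured 7.84 and 7.37, so the Tim-Fbl ZT3 array lay between the 2 control times. Its immediate neighbour GstZ1 measured 7.38 and 7.51 at ZT3 and 6.92 and 7.12 at ZT15 in controls, a difference of -0.42 ± 0.11 (SE) that did not pass (adjusted p = 0.165). GstD10, described above, was 2.00-fold lower at ZT15 in controls (-1.0 ± 0.098 SE, adjusted p = 0.0144). Without control ZT3 replicate 2, no member passed for time (GstZ2 -1.16, adjusted p = 0.061; GstD10 -0.97, adjusted p = 0.113). Without control ZT3 replicate 1 GstD10 did not pass either (-1.04, adjusted p = 0.0518), and GstE7 did (-1.08, adjusted p = 0.043). Without control ZT15 replicate 1, 5 members passed, with GstD3 (-0.95), GstE3 (-0.70) and GstE9 (-0.75) added.

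All 9 measured genes of the epsilon run were lower at ZT15 in controls, with differences between -0.75 and -0.03, and none of them passed. The largest differences there were in GstE7 (8.05 and 8.71 against 7.69 and 7.57, -0.75, adjusted p = 0.178), GstE3 (9.78 and 9.79 against 9.39 and 9.08, -0.55, adjusted p = 0.124) and GstE9 (12.69 and 12.73 against 12.39 and 11.96, -0.53, adjusted p = 0.182). GstE1 (-0.30, adjusted p = 0.21) and GstE6 (-0.29, adjusted p = 0.241) of the same run, and GstE13 (-0.33, adjusted p = 0.172) outside it, had unadjusted p under 0.05 and did not pass. So did GstD4 (-0.34, adjusted p = 0.19), whose levels of 4.31 and 4.48 at ZT3 and 4.08 and 4.04 at ZT15 lie near the floor. In the delta run GstD3 differed by -0.72 (adjusted p = 0.124) and GstD1 by -0.24 (adjusted p = 0.25), and GstD2, which rose with strain, by -0.07 (adjusted p = 0.775). The theta genes lay between -0.16 and 0.17 and the omega genes between -0.15 and 0.01. No marker gene of any list passed for time in controls. Time differences were above 0 in 4 of 4 photoreceptor markers, with a summed log2 level of 51.12 and 51.00 at ZT3 and 52.29 and 52.46 at ZT15. They were above 0 in 4 of 4 neuron markers, with sums of 31.51 and 31.28 at ZT3 and 32.26 and 32.74 at ZT15. They were above 0 in none of 6 ovary and eggshell markers, with sums of 34.32 and 34.87 at ZT3 and 33.59 and 33.49 at ZT15, so these sums, like most GST levels, were lower at ZT15. In the gut list 1 of 6 was above 0, with sums of 30.21 and 30.97 against 30.46 and 29.77, which overlap. For glia 2 of 3 and for muscle 1 of 2 were above 0, and the Malpighian tubule marker was above 0. The summed level of 5 fat body markers was 69.61 and 70.31 at ZT3 and 70.04 and 68.59 at ZT15, which overlap. No marker was at 0, and the part of these markers in the time differences was not tested.

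**Figure D4:**
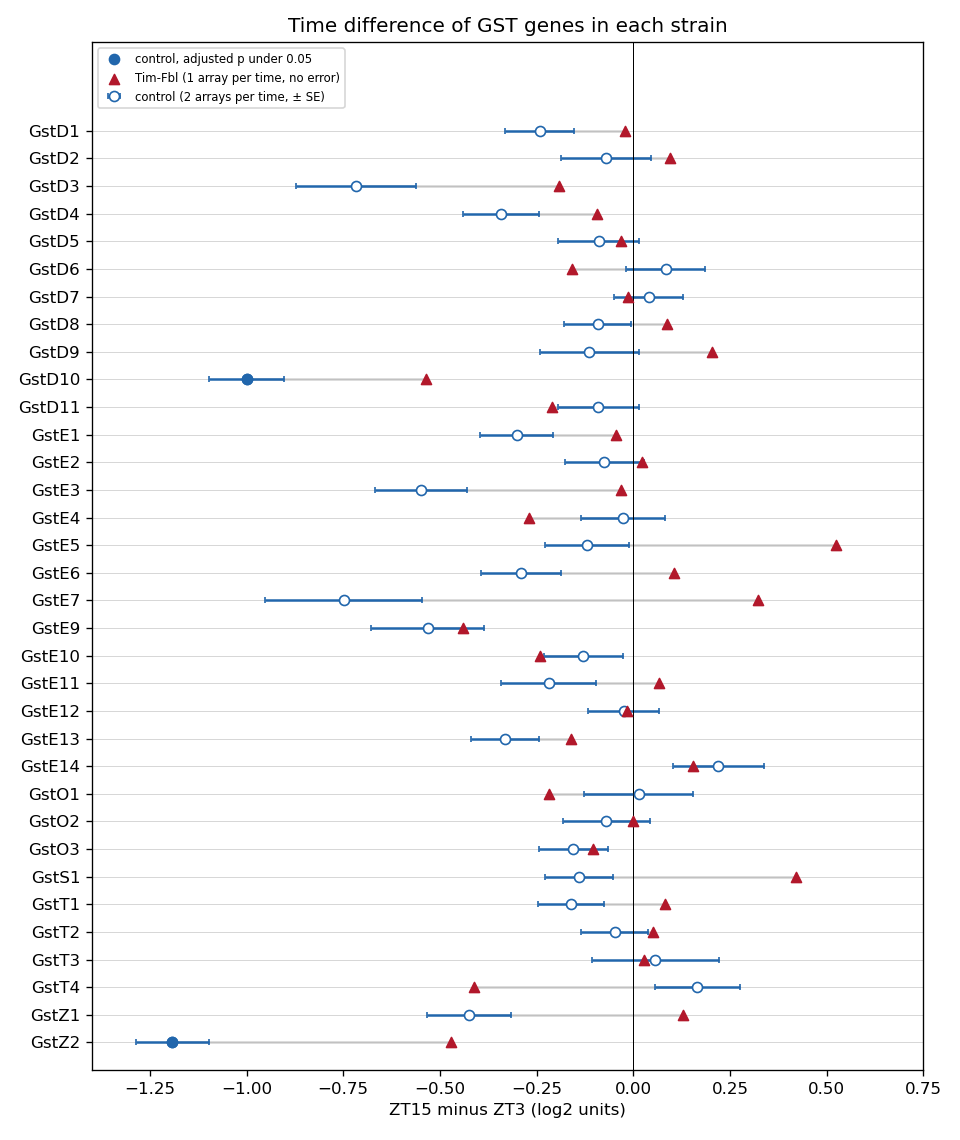
ZT15 minus ZT3 difference (horizontal axis, log2) of each GST gene in controls (circles, ± SE, filled at an adjusted p under 0.05) and in Tim-Fbl (triangles, 1 array per time, no error), joined by a grey line. Most control circles lie left of 0, with GstZ2 at -1.19 and GstD10 at -1.0, and in 25 of 34 genes the triangle lies to the right of the circle.

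The third comparison asked whether the time difference itself differed between strains. No member passed limma's interaction test, against 0.0373% of all probe sets (7 of 18769). At an unadjusted p under 0.05, 8 of 34 members differed, against 5.4% of all probe sets; 7 of the 8 had a time difference that was higher in Tim-Fbl than in controls. The interaction was above 0 in 25 of 34 members, against 8711 of all 18769 probe sets. Its median was 0.17, against -0.02 over all probe sets. It contains the control time difference and so is not independent of the comparison above. Within Tim-Fbl, the ZT15 array was below the ZT3 array in 20 of 34 members, against 52.8% of all probe sets, with a median of -0.02 against -0.01.

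The smallest interaction p was that of GstZ2, which was lower at ZT15 by 1.19 in controls and by 0.47 in Tim-Fbl (interaction 0.72 ± 0.16 SE, unadjusted p = 0.00351, adjusted p = 0.718). GstD10 differed by -1.0 in controls and -0.54 in Tim-Fbl, GstE3 by -0.55 and -0.03, and GstZ1 by -0.42 and 0.13. In GstE7 the 2 strains differed in sign (-0.75 in controls, 0.32 in Tim-Fbl), as in GstE5 (-0.12 and 0.53) and GstS1 (-0.14 and 0.42). GstT4 was the exception among the 8, with 0.17 in controls and -0.41 in Tim-Fbl. For these 7 genes other than GstZ2 the adjusted p was 0.842, and each Tim-Fbl value rests on 1 array per time.

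The genes that make, recycle and export glutathione were read beside the members. Of 4 listed synthesis genes 2 were measured. Gclc, the catalytic subunit of the rate-limiting enzyme, was 1.39-fold higher in Tim-Fbl (9.69, 9.56, 9.73 and 9.78 in controls, 10.16 and 10.17 in Tim-Fbl; 0.47 ± 0.079 SE, adjusted p = 0.0154). Its modifier subunit Gclm differed by 0.03 (adjusted p = 0.925). Without either Tim-Fbl array Gclc did not pass (0.41 and 0.53). None of the 3 sulfur amino acid genes, the 11 turnover and thiol redox genes or the 6 export genes passed for strain. Differences were 0.55 in Mdr50 and 0.11 in Mdr49, both drug exporter genes (adjusted p = 0.0981 and 0.372), -0.39 in Grx1, a glutaredoxin gene (adjusted p = 0.0669), and 0.27 in CG4829 (adjusted p = 0.0682). In sulfur amino acid supply they were 0.26 in Cbs and -0.11 in Ahcy (adjusted p = 0.263 and 0.758).

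Among 7 measured genes of other GST-fold proteins, se and Mgstl, a microsomal GST-like gene, fell (Mgstl by 0.40, adjusted p = 0.0223). Clic, a chloride intracellular channel gene, and Gdap1, a mitochondrial outer membrane protein gene, rose by 0.34 and 0.33 (adjusted p = 0.0371 and 0.0482). Of the 7 regulators, the AP-1 subunit genes Jra and kay rose by 0.60 and 0.52 (adjusted p = 0.0133 and 0.0111), and foxo, a stress and insulin response factor, rose by 0.37 (adjusted p = 0.0433). The main known regulators of delta GST genes under oxidative stress, cnc and its inhibitor Keap1, differed by 0.12 and -0.12 without passing (adjusted p = 0.288 and 0.437). Without the Tim-Fbl ZT3 array Mgstl, Clic, Gdap1, Jra, kay and foxo did not pass, and without the Tim-Fbl ZT15 array all of these but Jra did not. Clic and Gdap1 also did not pass when any single control array was left out, foxo without any of 3 control arrays (ZT15 replicate 2 being the exception), and Mgstl without control ZT3 replicate 1. Clic (0.27 and 0.25) and foxo (0.28 and 0.26) did not pass after quantile normalization or cyclic loess, nor did kay when the mean over its probe sets was tested (0.19). With the replicate block Clic, Gdap1 and foxo did not pass (adjusted p = 0.0598, 0.06 and 0.0519), and with trend and robust variances Gdap1 did not (adjusted p = 0.0546). For time in controls no gene of these lists passed.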

How the data were processed

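RNA of female heads (3 µg of total RNA per array) was made into biotinylated cRNA and measured on Affymetrix arrays, per the labels' protocols. The values deposited by the authors are on a log2 scale, as their range shows. Per the submitters' processing notes they come from RMA (version not given). Of 18952 probe sets, 183 manufacturer's controls were left out. Symbols came from the platform annotation, and all 34 members carry the same symbol in RefSeq (Release 6 plus ISO1 MT). RefSeq was used for gene order, for counting the symbols that fit the naming rule, and for matching listed genes by symbol or synonym. Values were used as deposited. They were fitted across all 18769 probe sets with limma 3.58.1 in R 4.3.3: strain and time as additive terms for the strain effect (3 residual degrees of freedom), and 4 group means for the time effect in controls and the interaction (2 residual degrees of freedom). Single Tim-Fbl arrays were assumed to vary like the controls. The functions were tested on simulated data. Full statistics went to members past the threshold in any test and to GstD1, GstE14 and GstS1; members at an unadjusted p under 0.05 and the ends of each class by mean level are given by values or adjusted p; outside the family, to se, fbl and list genes past the threshold or with the largest statistics. GstE8 is not analysed here. The probe sets of GstS1 and GstZ2 carry suffixes for shared sequence or several transcripts. The number of arrays limits the precision. Members and lists were chosen with earlier results of these data known. Figures were drawn with matplotlib 3.10.9.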

Additional observations from a re-analysis of the deposited data

How the results depend on the processing

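The number of members called for strain (6) ranged from 4 to 8 over 14 alternatives, and from 5 to 8 when 1 array was left out. GstD2, GstE5 and GstE14 passed in every alternative in which they were tested; GstD2, GstD10 and GstE5 are not in the filter at a mean of 7. The number called for time in controls (2) was 1 when genes below a mean level of 7 were dropped and ranged from 0 to 5 when 1 array was left out. The number for the interaction was 0 in every alternative run; leaving out a Tim-Fbl array could not be fitted there. GstE9 changed sign for strain with the mean over both probe sets (0.014), in which the second, near the floor, has the opposite sign. The control replicate numbers did not deviate together (r = 0.038 over 18769 probe sets). With the replicate block, 5 members passed for strain (GstO3 -0.35, adjusted p = 0.053) and 3 for time (GstD3 -0.72 added). The whole table gave 395 strain calls in place of 1650 when Tim-Fbl at ZT3 was left out, and 480 when Tim-Fbl at ZT15 was, and 792 and 893 without the first control replicates at ZT15 and ZT3. For time it gave 27 to 340 calls in place of 132 when 1 array was left out, 290 with trend and robust variances and 334 with the replicate block. For the interaction it gave 0 to 57 in place of 7. The members' median time difference was -0.09 after median subtraction, -0.15 after quantile normalization and -0.19 after cyclic loess. After median subtraction 1239 strain calls were higher and 477 lower, after quantile normalization 689 and 593, against 1021 and 629.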
